A study of Rattus norvegicus with 12 samples.

Results

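Transcripts of apical and basolateral amino acid and peptide transporters were followed in rat intestinal mucosa on Illumina RatRef-12 BeadChips, arrays of bead-bound probes hybridised with biotin-labelled cRNA. The genes were chosen as 9 listed transporters: Slc15a1, Slc1a1, Slc3a1, Slc7a9, Slc6a19 and Slc6a20 of the apical membrane, and Slc7a7, Slc7a8 and Slc3a2 of the basolateral membrane. Of these 9 genes, 8 were annotated to 1 probe each among the 22517 probes of the array table. Slc6a20 is listed there under its current symbol Slc6a20a, and Slc6a19 was not analysed here because no probe was paired with it. The platform annotation pairs probes with 13336 gene symbols in all, of which 6704 were measured by the detection rule given next. A probe counted as measured when its detection p-value, the chance of such a signal from background beads, was under 0.05 on at least 3 of the 12 arrays, which 7 of the 8 genes and 9137 probes in all passed. Slc7a8 was detected on 0 of 12 arrays.

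The rats were male Sprague Dawley (spelled Spraque Dawley in the labels). Per the labels, 6 rats had 75% of the bowel resected, a model of short bowel syndrome (SBS), and 6 sham rats had the gut cut and sewn together again. Arrays came from 4 SBS jejunal, 1 sham jejunal, 4 SBS ileal and 3 sham ileal mucosa samples, with the nucleic acid quality named as the reason for the number. No source used here gives the rats' ages, how long after surgery they were sampled, or how far along the jejunum or ileum. Codes 33 to 39 were taken to name rats, which the labels do not say outright: SBS jejunum 1 to 4 and SBS ileum 1 to 4 then came from the same 4 rats (36 to 39), and sham jejunum 1 and sham ileum 1 both from rat 33.

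Dietary protein reaches the enterocyte as short peptides and free amino acids. Peptides enter through PEPT1, the proton-coupled carrier encoded by Slc15a1, and amino acids through sodium-driven carriers and exchangers of the apical brush border. The exchangers built of a pair of chains join a heavy chain, which carries the complex to the membrane, to a light chain that does the transport: rBAT (Slc3a1) with b0,+AT (Slc7a9) at the apical side, and 4F2hc (Slc3a2) with y+LAT1 (Slc7a7) or LAT2 (Slc7a8) at the basolateral side.

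Across the 12 arrays 7041 to 8821 probes were detected, with median raw signals of 52.1 to 62.5. All 10 measured enterocyte markers of 11 on the array were present in the mucosa, Apob being the 1 that was detected on 0 arrays. The sum of the normalised signals of all 11 was 31577.5 to 47402.8 on SBS jejunal arrays, 40616.7 on the sham jejunal array, 29581.1 to 34383.8 on SBS ileal arrays and 27705.1 to 31811.9 on sham ileal arrays. It includes Alpi, the 1 of the 10 that passed between SBS regions. The log2 level of Alpi averaged 13.02 in SBS jejunum and 7.38 in SBS ileum (difference 5.65, adjusted p = 0.00434 in limma). All 7 measured ileal markers were lower in SBS jejunum than in SBS ileum. Of them 6 passed an adjusted p under 0.05 in limma, all but Amn, beside 4.39% of all measured probes passing as lower. The bile acid binding protein gene Fabp6, an ileal marker, averaged a log2 level of 8.21 in SBS jejunum, against 11.50 on the sham jejunal array, 14.27 in SBS ileum and 14.43 in sham ileum, but the SBS jejunal arrays were not alike. It was 5.96, 6.15, 7.15 and 13.56 on SBS jejunum 1 to 4. By Fabp6, SBS jejunum 4 (rat 39) stood near the ileal arrays and above the sham jejunal array, while the other SBS jejunal arrays stood below the sham one. Other ileal markers did not place it so. Slc10a2 was at most 4.96 on SBS jejunal arrays and at least 6.72 on SBS ileal arrays. The same bounds were 10.89 and 11.70 for Slc51a, 8.17 and 9.94 for Slc51b, 5.13 and 7.46 for Pyy, and 5.12 and 6.35 for Cubn. For Amn the groups overlapped. Cubn and Amn, though listed as ileal markers, stood highest on the sham jejunal array, at 9.66 and 10.92. Their means were 7.73 and 10.10 in SBS ileum and 6.17 and 10.47 in sham ileum. The log2 difference of Cubn between SBS and sham jejunum was -4.89. All 5 measured jejunal markers were higher in SBS jejunum than in SBS ileum, and 2 passed, beside 4.9% of all probes passing as higher. Gata4, 1 of the 2, was detected on all SBS jejunal arrays and on no ileal array. Fabp1, Slc5a1 and Lct differed by 0.05, 0.77 and 0.80 and did not pass (adjusted p = 0.931, 0.162 and 0.0879 in limma). Lct averaged 5.41 in SBS jejunum, against 7.61 on the sham jejunal array. The summed ileal markers were 14550.4 on SBS jejunum 4, 1649.2 to 2959.6 on the other SBS jejunal arrays, 7738.2 in sham jejunum and 25002.4 to 29830 over the ileal arrays. That sum is of levels off the log scale and includes Fabp6, so it largely repeats Fabp6 and is no separate evidence. The transporters called are therefore given without SBS jejunum 4 too. Resection and the place of sampling along the gut cannot be told apart in comparisons that rest on the sham jejunal array. Pancreatic acinar markers summed to 1386.6 on SBS jejunum 1, against at most 466.6 on the other arrays. In mucosa of mixed cells, fewer cells of a type and less RNA per cell cannot be told apart.

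Slc1a1 encodes EAAT3, the apical carrier of glutamate and aspartate, and it was lowest in resected jejunum. Its normalised level, on a log2 scale after background correction, was 5.69, 5.81, 6.20 and 6.25 on the SBS jejunal arrays, against 7.55 on the sham jejunal array. It was 7.78, 8.18, 8.38 and 8.51 on the SBS ileal arrays and 8.43, 8.67 and 8.84 on the sham ileal arrays. The order of the group means was thus sham ileum, SBS ileum, sham jejunum and SBS jejunum from high to low, and of the neighbours in that order only the ileal groups overlapped. The raw signals were 80.1 to 144.1 in SBS jejunum, 214.9 on the sham jejunal array, 210 to 370.4 in SBS ileum and 425.9 to 503.3 in sham ileum, and the probe was detected on all 12 arrays.

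**Figure D1:**
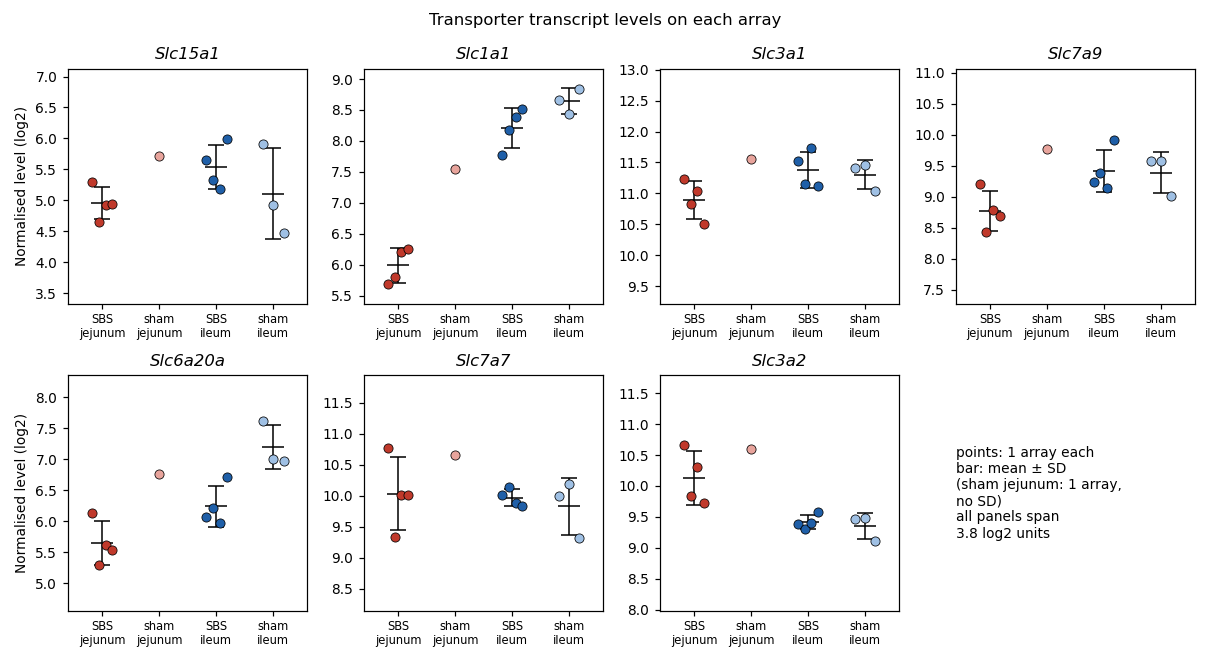
Normalised log2 level (vertical axis) of the 7 measured transporters on each array, by group; points are arrays, and bars give the mean and SD of the groups with more than 1 array. Slc1a1 lay between 5.69 and 6.25 on the 4 SBS jejunal arrays, below every other array, and Slc3a2 lay above all ileal arrays in jejunum.

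After resection, jejunum held less Slc1a1 transcript than ileum in each of 4 rats. The mean was 5.99 ± 0.28 (SD, n = 4) in SBS jejunum and 8.21 ± 0.32 (SD, n = 4) in SBS ileum, a log2 difference of -2.22 ± 0.18 (SE), or 4.67-fold lower (adjusted p = 2.54e-05 in limma, Benjamini-Hochberg over all measured probes). Within rats 36, 37, 38 and 39 the difference of jejunum minus ileum was -2.09, -2.37, -2.18 and -2.27. The 4 resected rats lay close together, and the value in sham rat 33 was -1.11. In the comparison of SBS jejunum with SBS ileum 2 of 7 measured transporters passed the test, where 9.29% of all measured probes passed. The transporters were 1 lower and 1 higher, beside 4.39% of probes lower and 4.9% higher. The groups did not overlap for the same 2 genes, beside 6.42% of probes lower, 6.11% higher and 12.5% in all. Without SBS jejunum 4 the difference was -2.31 (adjusted p = 3.42e-05). With no background correction the Slc1a1 difference was -1.71 (adjusted p = 6.55e-05).

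Slc1a1 was also the 1 of 7 transporters that passed in resected jejunum against the sham array. It passed as lower, where 1.47% of all probes passed and 0.832% passed as lower. Its mean of 5.99 ± 0.28 (SD, n = 4) in SBS jejunum stood against 7.55 on the lone sham jejunal array, a log2 difference of -1.57 ± 0.29 (SE), or 2.96-fold lower (adjusted p = 0.0227). All 4 SBS arrays lay below the sham array, and without SBS jejunum 4 the difference was -1.65 (adjusted p = 0.0184). B cell marker signals summed to 89 to 98.3 in SBS jejunum and 233.6 on the sham jejunal array. Macrophage markers, 2 of 4 on the array measured, summed to 171.7 to 304 in SBS jejunum and 472.3 in sham jejunum. Itgam was detected on 0 arrays. Of the 2, Aif1 differed by -1.17 between SBS and sham jejunum and Cd14, detected on no jejunal array, by 0.05. Neither passed. Goblet cell markers, 5 of 5 on the array measured, summed to 31430.6 to 39168.2 in SBS jejunum, 23204.5 in sham jejunum and 25949.3 to 29794.8 in SBS ileum, and of them Spink4 alone passed between SBS and sham jejunum (4.64, adjusted p = 0.000427). The part of these cells in the Slc1a1 differences was not tested. The call was lost in the fit on jejunal arrays alone (adjusted p = 0.124), with median scaling (0.165) and with no filter (0.0683). In ileum the Slc1a1 mean was 8.21 ± 0.32 (SD, n = 4) after resection and 8.65 ± 0.21 (SD, n = 3) after sham operation, a difference of -0.43 ± 0.20 (SE) that did not pass (adjusted p = 0.3). The resection effects differed by -1.13 ± 0.35 (SE) between jejunum and ileum, which did not pass either (adjusted p = 0.477).

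The genes whose levels ran closest to Slc1a1 over the 12 arrays, by root mean square distance of profiles centred on their means, were RT1-Db1, a class II antigen presentation chain (0.26 log2 units), Cd74, the class II invariant chain (0.30), and the transcription elongation factor gene Tcea3 (0.33). Their log2 differences between SBS jejunum and SBS ileum were -2.46, -2.33 and -1.68, which follow from their being chosen for likeness to Slc1a1 and are given as a description. Beside them, 4 of 5 measured T cell markers passed as lower in SBS jejunum than in SBS ileum, where 4.39% of all probes did. Among the 4, Cd8a had a log2 difference of -1.84 (adjusted p = 0.00312 in limma). Cd3g, the remaining marker, was higher by 0.23 and did not pass (adjusted p = 0.773). T cell marker signals summed to 635.3 to 1150.7 in SBS jejunum and 906.7 to 1222.3 in SBS ileum, with Cd5 detected on 0 arrays. Their part in the Slc1a1 difference was not tested.

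**Figure D2:**
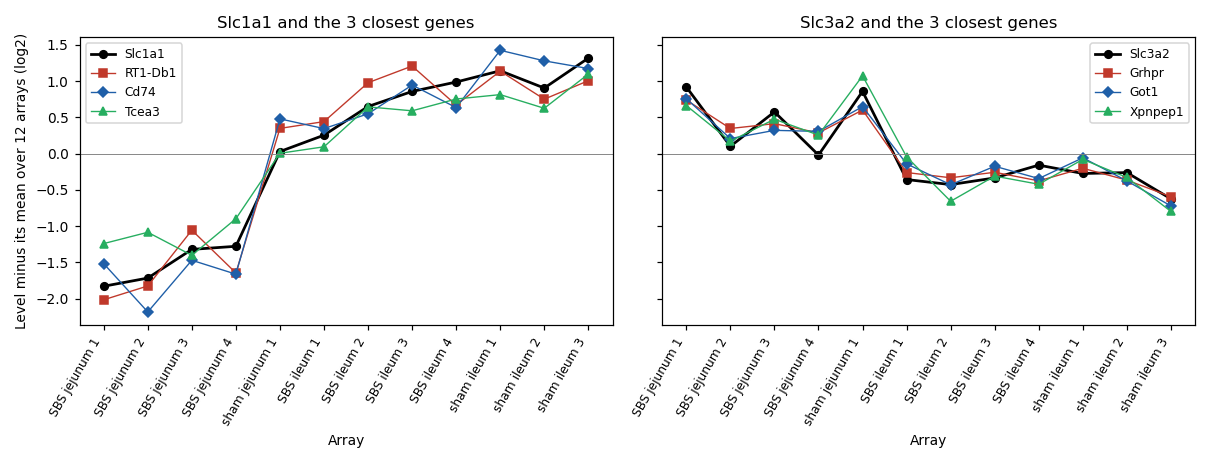
Level of each gene minus its mean over the 12 arrays (vertical axis, log2) on every array, for Slc1a1 and Slc3a2 with the 3 genes closest to each. Slc1a1, RT1-Db1, Cd74 and Tcea3 were low on the 4 SBS jejunal arrays, and Slc3a2, Grhpr, Got1 and Xpnpep1 averaged higher in jejunum than in ileum.

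Slc3a2, the heavy chain of the basolateral exchangers, ran the other way. Its level was 10.66, 9.84, 10.31 and 9.72 on SBS jejunum 1 to 4, against 9.38, 9.31, 9.40 and 9.58 on SBS ileum 1 to 4. All jejunal arrays lay above all ileal arrays. The difference was 0.71 ± 0.19 (SE) on the log2 scale, or 1.64-fold higher in SBS jejunum (adjusted p = 0.0382 in limma), and jejunum minus ileum was 1.28, 0.53, 0.91 and 0.14 within rats 36 to 39. Without SBS jejunum 4 the difference was 0.85 (adjusted p = 0.0132). The call was lost without sham ileum 1 or 2, without any 1 of the 4 SBS ileal arrays, and without SBS jejunum 1 or 3 (adjusted p = 0.0521 to 0.107, differences 0.54 to 0.77). Without rat 36, whose jejunal array had the highest pancreatic marker sum, the difference was 0.53 (adjusted p = 0.114). The Slc3a2 call was also lost with no filter (adjusted p = 0.102) and in the fit on SBS arrays alone (0.0749).

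Slc3a2 passed for resection in neither region. In jejunum the mean was 10.13 ± 0.43 (SD, n = 4) after resection and 10.60 on the sham array (difference -0.47 ± 0.30, SE, adjusted p = 0.633). In ileum it was 9.42 ± 0.11 (SD, n = 4) after resection and 9.35 ± 0.21 (SD, n = 3) after sham operation (difference 0.07 ± 0.21, SE, adjusted p = 0.904). In sham rats the jejunal array at 10.60 stood above the ileal mean of 9.35 by 1.25 ± 0.31 (SE), which did not pass over all probes (adjusted p = 0.117; 0.0427 without SBS jejunum 1). The genes closest to Slc3a2 were Grhpr, a glyoxylate reductase, Got1, the cytosolic aspartate aminotransferase, and Xpnpep1, the cytosolic aminopeptidase P, at distances of 0.18, 0.19 and 0.20. Their log2 differences between SBS jejunum and SBS ileum were 0.75, 0.67 and 0.75, likewise set by that choice.

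The promoters of the heavy chain genes are shown because the differences of Slc3a2 and Slc3a1 between SBS jejunum and SBS ileum had opposite signs. That of Slc3a1 was -0.49 and did not pass (adjusted p = 0.148 in limma). Windows of 250 bases before to 50 after the start were taken from RefSeq (GRCr8), where 8 of the 9 listed genes had an entry (all but Slc1a1) and Slc3a2 had 2 start sites. Each is written 5′ to 3′ on the gene's strand, with matches on either strand in capitals. The motifs searched were the CDX core TTTAT, the HNF1 core GTTAAT, the GC box motif GGGCGG, the TATA box motif TATAAA, the box motif CCAAT and the C/EBP-ATF response element TGATGNAAT.
Slc3a1, chr6:15394700-15394999, minus strand: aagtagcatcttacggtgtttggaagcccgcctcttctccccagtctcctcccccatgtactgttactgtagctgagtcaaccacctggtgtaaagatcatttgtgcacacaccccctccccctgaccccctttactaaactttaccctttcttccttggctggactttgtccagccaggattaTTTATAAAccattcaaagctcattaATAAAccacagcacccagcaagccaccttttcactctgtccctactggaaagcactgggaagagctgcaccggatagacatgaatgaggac
Slc3a2, chr1:215048015-215048314, minus strand: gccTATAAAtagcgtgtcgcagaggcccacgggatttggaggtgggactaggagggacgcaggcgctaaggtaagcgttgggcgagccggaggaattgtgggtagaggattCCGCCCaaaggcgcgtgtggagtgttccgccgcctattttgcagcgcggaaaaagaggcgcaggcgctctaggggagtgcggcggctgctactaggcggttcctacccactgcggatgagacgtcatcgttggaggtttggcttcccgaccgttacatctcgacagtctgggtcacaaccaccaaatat
Slc3a2, chr1:215039621-215039920, minus strand: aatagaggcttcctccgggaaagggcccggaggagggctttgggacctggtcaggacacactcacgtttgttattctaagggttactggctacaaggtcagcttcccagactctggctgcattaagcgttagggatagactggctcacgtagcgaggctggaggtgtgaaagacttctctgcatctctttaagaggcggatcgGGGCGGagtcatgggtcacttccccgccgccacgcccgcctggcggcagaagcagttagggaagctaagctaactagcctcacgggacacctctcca
The Slc3a1 window held TTTAT 3 times and TATAAA 2 times, partly over the same bases. The Slc3a2 window at the higher coordinates held GGGCGG once and 1 TATAAA that overlaps a reverse TTTAT, and the other held GGGCGG once. Of all 33469 RefSeq windows of this length, 42.5% held TTTAT, 14.2% TATAAA, 33.1% GGGCGG, 7.45% GTTAAT, 37.5% CCAAT and 1.09% TGATGNAAT. Those shares count windows with 1 or more matches and do not give how often several occur. The part of the motifs in the differences was not tested.

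Slc3a1 and Slc7a9, the chains of the apical exchanger of cystine and cationic amino acids, stood lower in jejunum than in ileum of all 4 resected rats. Slc3a1 was at 11.23, 10.83, 11.03 and 10.50 on SBS jejunum 1 to 4, against 11.52, 11.16, 11.73 and 11.13 on SBS ileum 1 to 4. The groups overlapped, and the difference of -0.49 ± 0.19 (SE) did not pass (adjusted p = 0.148). Within rats it was -0.29, -0.33, -0.70 and -0.62, and with the rat as a block it passed (adjusted p = 0.0348 as a fixed block, 0.0368 as a random one). Slc7a9 was at 9.20, 8.43, 8.79 and 8.68 in SBS jejunum, against 9.23, 9.39, 9.14 and 9.91 in SBS ileum. These groups overlapped through SBS jejunum 1 alone, and the difference of -0.64 ± 0.21 (SE) did not pass (adjusted p = 0.0912). It passed with the rat as a random block (adjusted p = 0.033), not as a fixed one (0.0564), and without SBS jejunum 1 (-0.79, adjusted p = 0.0389).

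Neither chain passed for resection. In jejunum Slc3a1 averaged 10.90 ± 0.31 (SD, n = 4) after resection and 11.55 on the sham array (difference -0.65, adjusted p = 0.415), and Slc7a9 8.78 ± 0.32 (SD, n = 4) and 9.77 (difference -0.998, adjusted p = 0.217). In ileum Slc3a1 averaged 11.38 ± 0.29 (SD, n = 4) after resection and 11.30 ± 0.23 (SD, n = 3) after sham operation, and Slc7a9 9.42 ± 0.34 (SD, n = 4) and 9.39 ± 0.33 (SD, n = 3). Those ileal differences of 0.08 and 0.03 were smaller than their SEs of 0.20 and 0.23 (adjusted p = 0.886 and 0.968).

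**Figure D3:**
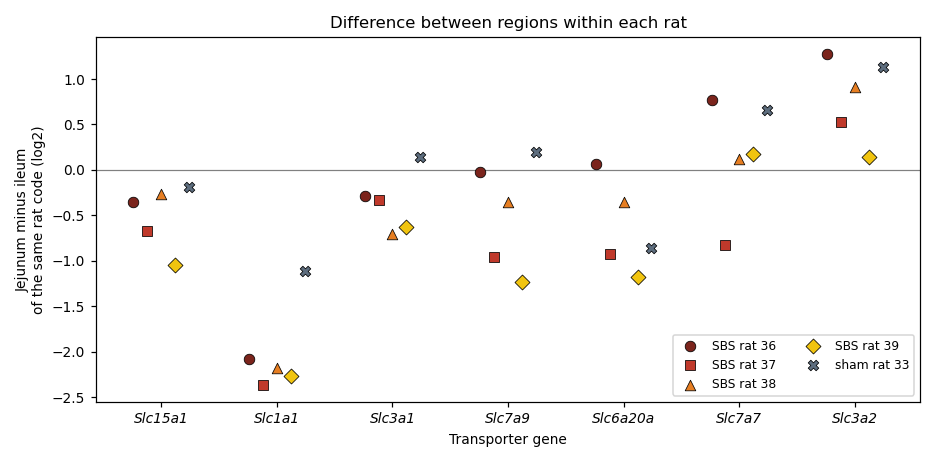
Jejunum minus ileum of the same rat code (vertical axis, log2) for each measured transporter in 4 SBS rats and sham rat 33. The 4 SBS rats lay between -2.37 and -2.09 for Slc1a1 and between 0.14 and 1.28 for Slc3a2, and had both signs for Slc7a7 and Slc6a20a.

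Slc6a20a encodes the apical carrier of proline and other imino acids (SIT1). Its level was 5.97, 6.07, 6.21 and 6.71 on the SBS ileal arrays, against 6.97, 7.01 and 7.62 on the sham ileal arrays. The ileal groups did not overlap, which held for 1 of 7 transporters and for 19.1% of all measured probes (8.43% lower and 10.7% higher). The difference of -0.96 ± 0.24 (SE) just missed the threshold (adjusted p = 0.0551 in limma), and 0 of 7 transporters passed in ileum, where 2.94% of all probes did. At an unadjusted p under 0.05 in limma 1 of 7 did, Slc6a20a, beside 16.8% of all probes. It passed the adjusted test without SBS ileum 4 (-1.12, adjusted p = 0.0418), without SBS jejunum 1 (-0.96, 0.0331), with median scaling (-1.15, 0.0263), with cyclic loess (-0.97, 0.0401) and with array weights (-0.89, 0.014), and over all alternatives the adjusted p ran from 0.014 to 0.155. In jejunum Slc6a20a stood at 5.29 to 6.14 after resection (mean 5.65 ± 0.36, SD, n = 4) and at 6.76 on the sham array (difference -1.11 ± 0.35, SE, adjusted p = 0.181). SBS jejunum and SBS ileum overlapped and differed by -0.60 ± 0.22 (SE; adjusted p = 0.132), or by -0.76 without SBS jejunum 1 (adjusted p = 0.0457). Rats carry a neighbouring gene, Slc6a20b, and sharing of signal between them was not tested.

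Slc15a1, which encodes PEPT1, gave a dim signal of 58.8 to 106.9 and was detected on 10 of 12 arrays, all but sham ileum 3 and SBS jejunum 2. Its level was 5.30, 4.66, 4.93 and 4.94 on SBS jejunum 1 to 4, against 5.72 on the sham jejunal array. It was 5.65, 5.33, 5.19 and 5.98 on SBS ileum 1 to 4, against 5.91, 4.93 and 4.47 on sham ileum 1 to 3. The ileal groups overlapped, and the sham jejunal array lay above all SBS jejunal arrays. No comparison passed: resection differed by -0.77 ± 0.44 (SE) in jejunum (adjusted p = 0.562) and by 0.43 ± 0.30 in ileum (adjusted p = 0.525), and SBS jejunum differed from SBS ileum by -0.58 ± 0.28 (adjusted p = 0.27). Jejunum was lower in 4 of 4 resected rats, with log2 values of -1.05 to -0.26, and with the rat as a fixed block the difference passed (adjusted p = 0.0325; 0.105 as a random block).

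Slc7a7, the basolateral y+LAT1 light chain, passed in no comparison. Its level was 10.78, 9.33, 10.01 and 10.01 on SBS jejunum 1 to 4, against 10.66 on the sham jejunal array. It averaged 9.97 ± 0.14 (SD, n = 4) in SBS ileum and 9.83 ± 0.46 (SD, n = 3) in sham ileum. The SBS jejunal arrays spread more than the ileal ones, and jejunum minus ileum was 0.77 in rat 36, -0.82 in rat 37, 0.12 in rat 38 and 0.18 in rat 39. The mean difference between SBS jejunum and SBS ileum was 0.06 ± 0.27 (SE; adjusted p = 0.942), and its sign turned without SBS jejunum 1 (-0.19). The LAT2 gene Slc7a8 had raw signals of 48.3 to 61.9, not well above background on any array, so no fold was formed.

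By comparison, all 7 measured transporters had negative differences in resected against sham jejunum, with a median of -0.77 on the log2 scale beside 0.01 over all measured probes. For 5 of them the sham array lay above all 4 SBS arrays, and for Slc7a7 and Slc3a2 it lay within their range; 19.9% of all probes had the sham array on top, 21.2% had it at the bottom, and 41.1% had either. In ileum 5 differences were positive and 2 negative (median 0.07, beside 0.03 over all probes). The difference of the resection effects was negative for 7 of 7 (median -0.77, beside -0.01), 0 passed and 0.197% of all probes did (0.0985% each way). At an unadjusted p under 0.05 in limma 3 of 7 did, Slc1a1, Slc7a9 and Slc15a1, beside 5.49% of all probes. These comparisons share the lone sham jejunal array, so their signs are not independent of each other. In sham rats 0 of 7 passed between jejunum and ileum, where 0.624% of all probes did (0.394% higher and 0.23% lower). At an unadjusted p under 0.05 in limma 2 of 7 did, Slc3a2 and Slc1a1, beside 8.97% of all probes. The sham jejunal array lay above all sham ileal arrays for 4 of 7 and below them for 2, beside 31.9% and 34.2% of all probes, or 66.1% together. Slc1a1 stood at 7.55 in sham jejunum and 8.65 ± 0.21 (SD, n = 3) in sham ileum (difference -1.09 ± 0.30, SE, adjusted p = 0.168; 0.0444 with the rat as a random block).

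**Figure D4:**
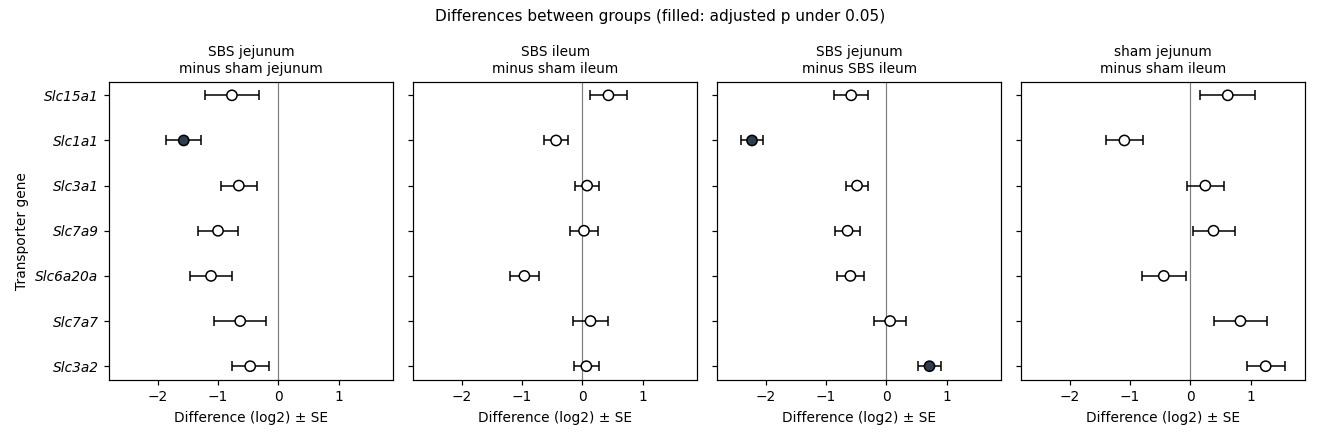
Log2 differences with SE (horizontal axis) of the 7 measured transporters in 4 comparisons; filled points passed adjusted p under 0.05. Slc1a1 at -1.57 and -2.22 and Slc3a2 at 0.71 are filled, and all 7 values lie below 0 in the comparison of SBS with sham jejunum.

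Of 36 other listed amino acid and peptide transporters, 35 were on the array and 19 were measured. In resected ileum 2 of these 19 passed as lower and 0 as higher, beside 2.29% of all probes lower and 0.657% higher. Slc7a6, the y+LAT2 light chain that also pairs with 4F2hc, averaged 5.35 ± 0.28 (SD, n = 4) after resection and 6.40 ± 0.36 (SD, n = 3) after sham operation, a difference of -1.06 ± 0.22 (SE; adjusted p = 0.0287). Slc15a3, a peptide and histidine carrier of endosomes and lysosomes known from immune cells, was detected on 0 of 4 SBS and 3 of 3 sham ileal arrays (means 4.51 and 5.34) and was at least 1.49-fold lower (adjusted p = 0.034), a bound that takes the lowest detected level on each array. Slc7a6 lost its call without sham ileum 2 or 3 or SBS ileum 1 or 4 (adjusted p = 0.0762 to 0.167), and Slc15a3 without those arrays or SBS jejunum 2 or 3 (0.05 to 0.192). With no filter Slc7a6 also lost it (adjusted p = 0.0785), and Slc15a3 lost it with no filter (0.0783), offset 50 (0.055), no background correction (0.0552), the deposited matrix (0.0556) and ileal arrays alone (0.072). All 3 measured B cell markers fell in the same comparison, and their signals summed to 87.9 to 127.6 in SBS ileum and 202.8 to 447.5 in sham ileum, with Pax5 detected on 0 arrays; their part in these differences was not tested. In the other 4 comparisons 0 of 19 passed.

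Of 9 listed genes for partners, ion gradients and intestinal transcription factors, 5 were on the array and 4 were measured. Cdx2, a homeobox factor of intestinal epithelium, was lower in SBS jejunum (6.70 ± 0.10, SD, n = 4) than in SBS ileum (7.30 ± 0.07, SD, n = 4), with a difference of -0.60 ± 0.12 (SE; adjusted p = 0.0089; 0.0702 with median scaling). Slc9a3, the sodium-proton exchanger that restores the proton gradient used by PEPT1, differed by 0.93 after resection in ileum and by 0.87 between SBS jejunum and SBS ileum (adjusted p = 0.202 and 0.137). Atp1b1, the sodium pump's beta chain, and Nherf1, a brush border scaffold, differed by -0.25 and -0.43 between SBS jejunum and SBS ileum (adjusted p = 0.356 and 0.402).

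Peptidases cut dietary peptides into the substrates of these transporters. Of 18 listed, 15 were measured. In SBS jejunum against SBS ileum 6 of them passed as lower and 2 as higher, beside 4.39% of all probes lower and 4.9% higher. Naaladl1, a brush border peptidase, was at 9.16 ± 0.64 in SBS jejunum and 12.38 ± 0.38 in SBS ileum (SD, n = 4 each), a difference of -3.21 ± 0.28 (SE; adjusted p = 3.59e-05). Enpep, the aminopeptidase that removes acidic residues, differed by -2.58 (adjusted p = 0.000267), the dipeptidase gene Dpep1 by -2.32 (4.77e-05), the meprin chain gene Mep1a by -1.41 (0.00822) and the cytosolic dipeptidase gene Cndp2 by -1.33 (0.0289). Tmprss15, which encodes enteropeptidase, the activator of trypsinogen, was higher at 12.04 ± 0.90 in SBS jejunum than at 8.30 ± 1.70 in SBS ileum (SD, n = 4 each; adjusted p = 0.0192). Cndp2 lost its call without SBS ileum 3 or 4 or SBS jejunum 2 or 3 (adjusted p = 0.064 to 0.0914), and Tmprss15 without SBS jejunum 2 or 3 (0.0513 to 0.0586). With no filter both lost it (0.107 for Cndp2 and 0.0896 for Tmprss15), and Cndp2 did with median scaling (0.0922) and SBS arrays alone (0.0577).

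For resection, 3 of 15 peptidase genes passed as lower in jejunum and 0 as higher, beside 0.832% of all probes lower and 0.635% higher. In ileum 1 passed as higher and 0 as lower, beside 0.657% of all probes higher and 2.29% lower. In jejunum Naaladl1 differed by -2.88 ± 0.45 (SE; 9.16 ± 0.64, SD, n = 4, in SBS jejunum and 12.05 on the sham array; adjusted p = 0.0103), Enpep by -2.21 (0.0478) and Dpep1 by -1.67 (0.0329). Lap3, the cytosolic leucine aminopeptidase, was higher in SBS ileum at 9.54 ± 0.64 (SD, n = 4) than in sham ileum at 8.12 ± 0.38 (SD, n = 3; adjusted p = 0.0413). Naaladl1 kept its call in all 11 fits with 1 array left out. The sham jejunal array, the whole reference group in jejunum, could not be left out. Naaladl1 lost its call with median scaling (adjusted p = 0.0598) and jejunal arrays alone (0.124). Dpep1 lost its call without sham ileum 2 or 3 or SBS jejunum 2 or 3 (adjusted p = 0.0551 to 0.0697). Enpep lost its call in 8 of 11 such fits (0.0559 to 0.081). These were without sham ileum 1, 2 or 3, SBS ileum 1 or 4, or SBS jejunum 1, 2 or 3. Lap3 lost its call without sham ileum 2 or 3, SBS ileum 1, 2 or 3 or SBS jejunum 3 (0.0616 to 0.227). Enpep also lost its call in 8 of 11 other settings, among them no background correction (adjusted p = 0.114), the rat as a random block (0.07) and jejunal arrays alone (0.12). Dpep1 lost it with median scaling (0.0823), no filter (0.102) and jejunal arrays alone (0.259). Lap3 lost it in 7 of 12 other settings, all of them scalings, background corrections or filters (0.057 to 0.127) or ileal arrays alone (0.0646). Of 16 measured genes of the amino acid response, the transcripts raised when amino acids are short, 0 passed in any of the 5 comparisons, and their medians ran from -0.16 to 0.27 on the log2 scale.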

How the data were processed

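Per the file headers, the deposited table gives an intensity (mean over beads) and a detection p-value for each probe and array, with no scaling between arrays. In the series matrix the deposited values are log2 and share their quantiles over all arrays; they differed by at most 0.01 from quantile-normalised log2 signals. No source used here names the scanner software. The number of arrays limits the precision, and the p-values measure the spread between arrays within the groups.

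Signals were background corrected by normexp with detection p-values (offset 16), then quantile normalised (log2 scale; limma 3.58.1, R 4.3.3). The filter kept probes with a detection p-value under 0.05 on 3 or more arrays (9137 of 22517). The lmFit and eBayes functions fitted 1 mean per group over all 12 arrays, with the lone sham jejunal array assumed to vary like the others. Tests were two-sided, adjusted by Benjamini-Hochberg over 9137 probes and called under 0.05. The script was tested on simulated data. Probes were named by the platform annotation, updated through Entrez identifiers for 13747 of them; 8730 probes carried no single symbol.

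The transporters and gene lists were chosen with earlier results of these data known. Named by rule were the 9 transporters, list genes that passed (at most 6 per list and comparison), the measured accessory genes and the 3 genes closest to each called transporter. Each named gene with a value had 1 measured probe. Rat codes paired SBS jejunum with SBS ileum: deviations from group means of the same rat correlated by 0.66, 0.47, 0.19 and 0.44 across probes. For sham and SBS ileum, which share numbers but not codes, they correlated by 0.21, -0.08 and 0.03. Pairs of unlike codes between SBS jejunum and SBS ileum were not set beside them. These values therefore do not show that the codes name rats. Alternatives were other background corrections, scalings and filters, array weights, gene means, blocks and arrays left out, all on the same normalised values where arrays were left out.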

Additional observations from a re-analysis of the deposited data

How the results depend on the processing

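Of 833 recomputed differences of the transporters, 817 kept their direction. The Slc1a1 difference between SBS jejunum and SBS ileum passed in all 25 other fits (-2.37 to -1.71) and that between SBS and sham jejunum in 20 of 23 (-1.65 to -1.14).

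The count of transporters called in ileum was 0, but 1 (Slc6a20a) with median scaling, cyclic loess, array weights and the replicate block by number in the titles (adjusted p = 0.0363 for Slc6a20a), and 0 to 1 with an array left out. In jejunum it was 1, but 0 with median scaling, with no filter and with jejunal arrays alone. It was 1 in the 11 fits with another array left out. The lone sham jejunal array, on which that comparison rests, could not be left out. Between SBS jejunum and SBS ileum it was 2, but 1 with no filter and with SBS arrays alone, 4 with the rat as a random replicate block and 4 as a fixed one, and 1 to 3 with an array left out. Between sham jejunum and sham ileum it was 0, but 2 with array weights, 1 with the random replicate block, 1 without rat 36, and 0 to 1 with an array left out. The number block rests on no shared rat.

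Small differences that did not pass changed sign. In ileum Slc7a9 was -0.0299 with median scaling and -0.14 with the number block, Slc3a2 -0.00054 with median scaling, and Slc3a1 -0.0036 with cyclic loess. With an array left out these ran from -0.16 to 0.12 for Slc7a9, -0.0518 to 0.13 for Slc3a2, -0.0542 to 0.16 for Slc3a1 and -0.13 to 0.31 for Slc7a7. The difference of effects on Slc6a20a was 0.0388 with median scaling, 0.26 with the fixed rat block and -0.36 to 0.0032 with an array left out. Slc7a7 in SBS jejunum against SBS ileum was -0.0648 with array weights, -0.17 without rat 36 and -0.19 to 0.30 with an array left out. The causes were not tested.

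Over all probes, with median scaling 21 were higher and 212 lower in ileum (60 and 209 as reported), 50 and 30 in jejunum (58 and 76), 492 and 234 between SBS regions (448 and 401), and 15 and 7 for the difference of effects (9 and 9). That scaling moved the median of all probes to 0.16 for the difference of effects and -0.14 between sham regions. Totals called ran from 171 to 930 in ileum over other settings (269 as reported) and from 23 to 330 with an array left out, and from 21 to 244 in jejunum (134 as reported). The dim signals of Slc15a1 and Slc7a8 limit what can be seen of them, and 1 sham jejunal array limits each comparison that uses it.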
